A study of Saccharomyces cerevisiae with 24 samples.

Results

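Permeases of the plasma membrane carry amino acids and short peptides into yeast cells, and the transcripts of 10 of them were followed after a change of temperature. The members were TAT1, TAT2, GAP1, AGP1, BAP2, BAP3, DIP5, CAN1, GNP1 and PTR2, each taken as the probe set that the platform annotation gives to that gene. All 10 were found, each with 1 probe set, among the 5449 Saccharomyces cerevisiae genes of the array. Their locus tags are YBR069C for TAT1, YOL020W for TAT2, YKR039W for GAP1, YCL025C for AGP1, YBR068C for BAP2, YDR046C for BAP3, YPL265W for DIP5, YEL063C for CAN1, YDR508C for GNP1 and YKR093W for PTR2.

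The study used baker's yeast of the laboratory strain S288C, grown in synthetic SD medium at 28 °C to an optical density of 1. Cultures were then moved to 37 °C (the heat series), moved to 10 °C (the cold series) or left at 28 °C (the control series). Each series was sampled at 0, 15, 30 and 60 min and at 2, 4, 8 and 24 h, with 1 array per series and time and 24 arrays in all. The labelled RNA of the heat series was made with a Roche amplification kit combined with Ambion's MessageAmp II kit, and that of the cold and control series with the Ambion kit alone, so that a constant difference of the heat series cannot be told apart from the kit. Whether the times of a series came from 1 culture, and which amino acids the medium held, is not given in the sources used here. Values are log2 levels from RMA, the usual summary of the probes of an Affymetrix array. Levels of 1 gene are comparable within a series and between the cold and control series, but levels are not comparable between genes. Between the heat series and the others, a difference in level also contains any difference between the kits. Where a transcript was lower, fewer cells carrying it and less of it per cell cannot be told apart. Mating type markers had high median levels for the alpha type (14.2 for MF(ALPHA)1 and 12.99 for STE3) and lower ones for the a type (8.48 for MFA1 and 8.51 for STE2), although MFA1 reached 13.1 on its highest array.

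Amino acid permeases are regulated by what the medium offers. In baker's yeast the plasma membrane sensor Ssy1, with Ptr3 and Ssy5, detects external amino acids and releases the transcription factors Stp1 and Stp2, which induce permeases of broad or branched-chain substrates and the peptide transporter Ptr2. Nitrogen catabolite repression, which acts through the GATA factors Gln3 and Gat1, keeps other permeases such as Gap1 low while a preferred nitrogen source is at hand. PTR2 has a further control, since its repressor Cup9 is degraded through the ubiquitin ligase Ubr1 when dipeptides are taken up.

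The members fall into groups by substrate. AGP1 encodes a permease of broad specificity, GNP1 its close relative with high affinity for glutamine, and GAP1 the general amino acid permease. BAP2 and BAP3 encode permeases of leucine, isoleucine and valine, while TAT1 and TAT2 encode permeases of tyrosine and tryptophan. CAN1 encodes the arginine permease, DIP5 that of glutamate and aspartate, and PTR2 the transporter of dipeptides and tripeptides. AGP1 and GNP1, and likewise BAP2 and BAP3, are similar in sequence, and whether their probe sets see each other's transcript was not tested. BAP2 and TAT1 are neighbours in the genome in the RefSeq gene table.

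At 0 min, before any shift, the heat series already stood apart from the control series. GAP1 had a level of 10.23 in the heat series and 13.98 in the control series, a difference of -3.75. CAN1 had 9.83 in the heat series and 12.97 in the control series, a difference of -3.14. On the other side, TAT1 was higher by 2.11, PTR2 by 1.82 and BAP2 by 1.35 in the heat than in the control series. These 5 of the 10 members differed by at least 2-fold, beside 44.0% of all genes. Between the cold and the control series none of the 10 differed by that much at 0 min, beside 0.551% of all genes, and the members farthest apart were TAT1 (0.68), PTR2 (0.58) and BAP2 (0.53). Each series is therefore described below by its change from its own 0 min array. Such a change also contains what happened over time without a shift, which the control series shows.

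**Figure D1:**
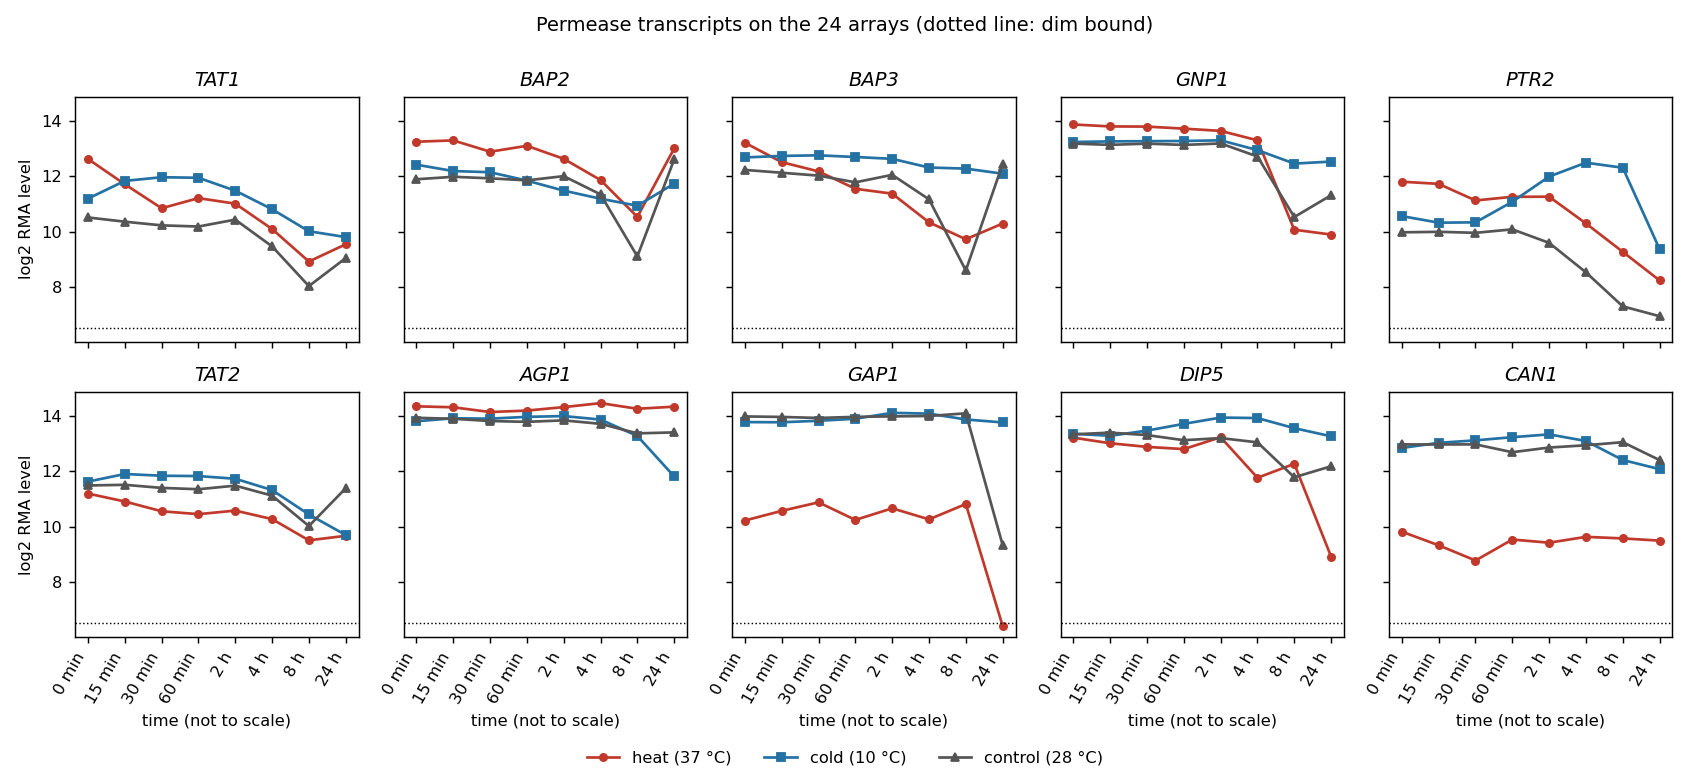
Log2 RMA level of the 10 permease genes (1 panel each) against sampling time, for the heat series (circles), the cold series (squares) and the control series (triangles), with 1 array per point and no error bar. The dotted line at 6.53 is the 95th percentile of the mean levels of other-species probe sets, below which only GAP1 in the heat series at 24 h (6.43) falls. GAP1 and CAN1 lie lower in the heat series from 0 min on.

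Without any shift, 7 of the 10 permease transcripts were at least 2-fold lower at 8 h than at 0 min, beside 2.28% of all genes (124 of 5449). BAP3 was the lowest, with a change of -3.62 (12.3-fold), followed by BAP2 at -2.78, PTR2 at -2.67, GNP1 at -2.65, TAT1 at -2.47, DIP5 at -1.55 and TAT2 at -1.46. The other 3 members had changes of -0.56 for AGP1, 0.08 for CAN1 and 0.11 for GAP1. Among 11 other amino acid permeases, MUP1 (-2.29) and MMP1 (-2.53) were also at least 2-fold lower at 8 h, and the rest were not. The decline had begun by 4 h, when BAP3, PTR2 and TAT1 were among only 8 genes of the array (0.147%) that lay at least 2-fold below their start. Up to 2 h no member of the control series had moved by 2-fold, and the lowest change was -0.45, of BAP3 at 60 min.

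BAP3 shows the control series' course most clearly. Its levels there were 12.22, 12.12, 12.02, 11.77, 12.04, 11.16, 8.60 and 12.43 from 0 min to 24 h. The low array is the one at 8 h, and the level at 24 h was back above that at 0 min. BAP2 did the same, with 9.10 at 8 h and 12.60 at 24 h, a step of 3.49. TAT2 stood at 10.03 at 8 h and 11.39 at 24 h, and TAT1 at 8.04 at 8 h and 9.04 at 24 h. These 4 of the 10 members were at least 2-fold down at 8 h and then at least 2-fold up from there by 24 h, beside 1.08% of all genes. MUP1 (10.58 at 8 h and 12.28 at 24 h) and MMP1 (7.99 and 10.52) had this pattern too, so it is not particular to the 10. That pattern was not a planned comparison, and its share is descriptive only. PTR2 went on down to 6.95 at 24 h, and GNP1 was at 11.31.

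GAP1 was the reverse of this group in time. In the control series it stayed between 13.92 and 14.09 through 8 h and was at 9.35 at 24 h, a change of -4.63 (24.8-fold) from 0 min. At 24 h, 5 of the 10 members were at least 2-fold lower in the control series (DIP5, GAP1, GNP1, PTR2 and TAT1), beside 20.5% of all genes.

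A spline fit in limma tested whether a level changed over time in the control series. With all times in the fit, 7 of the 10 members passed after Benjamini-Hochberg adjustment, beside 54.5% of all genes. These were AGP1, BAP3, DIP5, GAP1, GNP1, PTR2 and TAT1. Without 24 h, when much of the transcriptome had moved, 6 of the 10 passed, beside 4.42% of all genes. These were PTR2 (adjusted p = 2.2e-05), BAP3 (3.5e-05), BAP2 (6.8e-05), TAT1 (7.5e-05), TAT2 (0.0012) and GNP1 (0.0035). BAP2 and TAT2 passed only in this shorter fit of those 2 fits. GAP1's call rests on 24 h (adjusted p = 1.0 without it), and those of AGP1 (0.098) and DIP5 (0.080) were also lost without it. No time was repeated in any series, so all p-values here measure the spread between times, not between cultures.

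**Figure D2:**
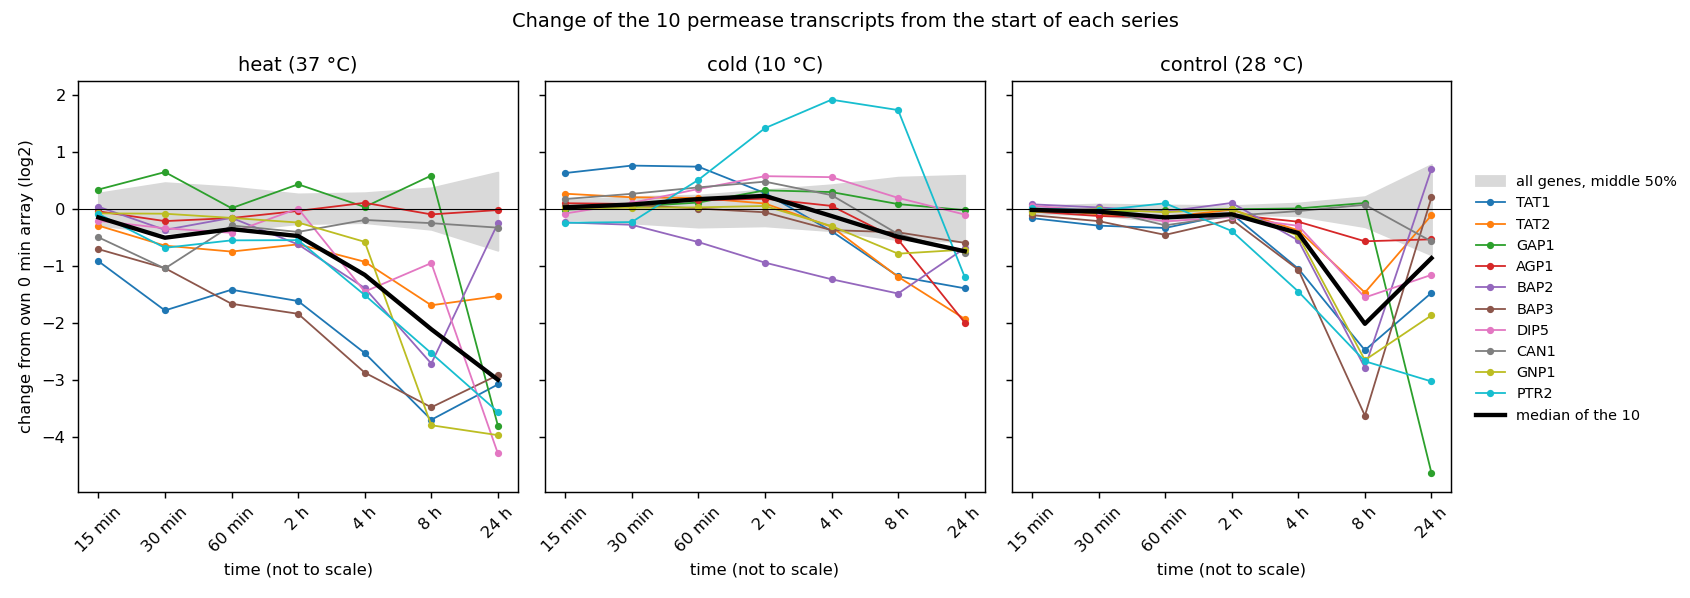
Change of log2 level from the own 0 min array against time in the heat, cold and control series (1 panel each), with 1 line per permease gene, a black line for the median of the 10 and a grey band for the middle 50% of all 5449 genes. In the control series the median of the 10 is -0.42 at 4 h and -2.01 at 8 h, below the band, and in the cold series it is -0.12 and -0.48.

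In the heat series the median of the 10 changes was -0.50 at 30 min and -1.15 at 4 h, then -2.11 at 8 h, and it ended at -2.99. In the unshifted control series the medians at these times were -0.04, -0.42, -2.01 and -0.86. The levels of TAT1, a tyrosine permease, were 12.62, 11.70, 10.84, 11.20, 11.00, 10.09, 8.92 and 9.54 from 0 min to 24 h, so that the change at 8 h was -3.70 (12.95-fold). Its levels in the control series over the same times were 10.51, 10.36, 10.22, 10.18, 10.43, 9.47, 8.04 and 9.04. The heat array was the higher at each time, and its change from its own start the larger. GNP1 had the lowest change at 8 h in the heat series, -3.79 (13.8-fold), and BAP3 had -3.48. At 60 min, 2 h and 4 h BAP3 had the lowest change of the 10 (-1.66, -1.83 and -2.87). Its levels were 13.20, 12.50, 12.17, 11.54, 11.36, 10.33, 9.72 and 10.29 from 0 min to 24 h.

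At 30 min, 3 of the 10 members were at least 2-fold below their start in the heat series (BAP3, CAN1 and TAT1), beside 10.0% of all genes. BAP3 and TAT1 remained so at 60 min, beside 8.64%, and at 2 h, beside 1.47%. At 4 h the count was 5 (BAP2, BAP3, DIP5, PTR2 and TAT1), beside 3.12% of all genes. At 8 h it was 6 (BAP2, BAP3, GNP1, PTR2, TAT1 and TAT2), beside 4.35%. At 24 h it was 7, beside 17.2%, and DIP5 was then the lowest with a change of -4.29 (19.5-fold). The control series, without a shift, had 3, 7 and 5 such members at 4, 8 and 24 h. GNP1 had levels of 13.29 at 4 h and 10.07 at 8 h in the heat series, against 12.70 and 10.52 in the control series. AGP1 kept levels between 14.14 and 14.46 in the heat series and was never 2-fold away from its start there.

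**Figure D3:**
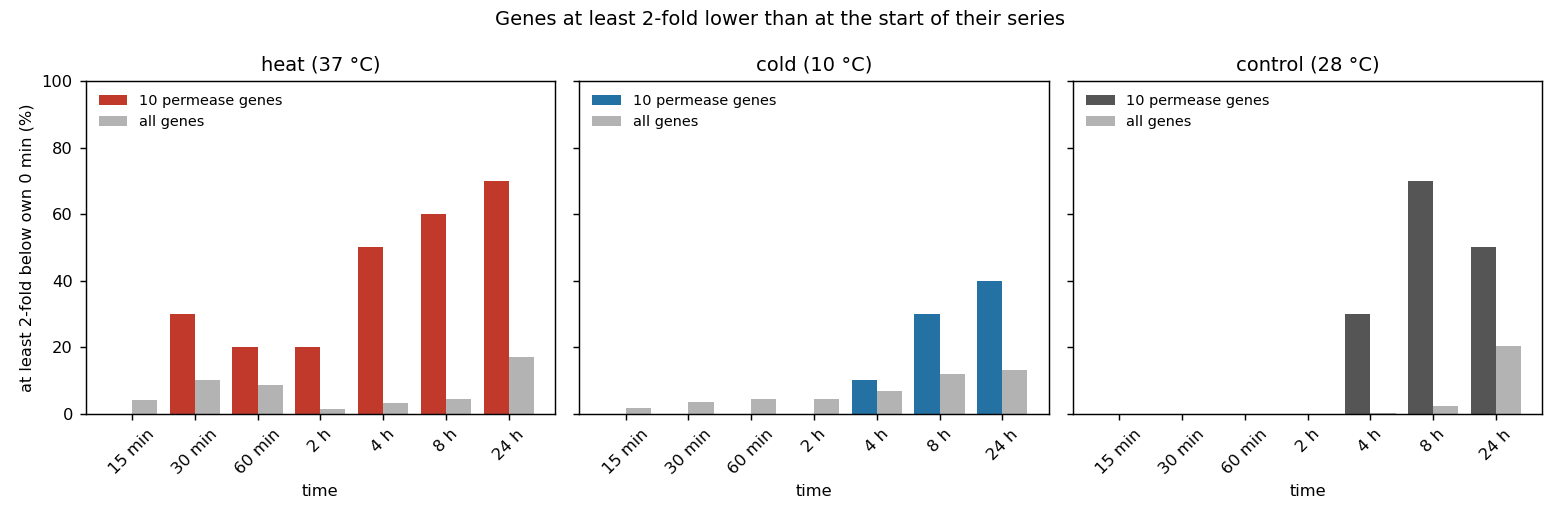
Percentage of genes at least 2-fold below their own 0 min array at each time, as bars for the 10 permease genes and for all 5449 genes, in the heat, cold and control series. At 8 h the bars of the permease genes stand for 6, 3 and 7 of 10 genes, beside 4.35%, 11.9% and 2.28% of all genes.

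In comparisons of time windows with the control series, no member passed in the heat series, and very few genes of the array did. The comparisons took the mean of an early window (15, 30 and 60 min) or a late window (2, 4 and 8 h), minus the control series over the same times and minus the same difference at 0 min. In limma's fit 0 of the 10 members passed early (beside 0.0184% of all genes), late (0.0551%) or late against early (0.147%) at an adjusted p under 0.05. At an unadjusted p under 0.05 TAT1 passed early and late, beside 8.35% and 5.51% of all genes, and no member passed late against early, beside 20.2%. TAT1 had a mean early change of -1.36 in the heat series against -0.26 in the control series, a difference of -1.11 ± 0.39 (SE, adjusted p = 0.54). Its late means were -2.61 in the heat series and -1.20 in the control series, a difference of -1.41 ± 0.39 (adjusted p = 0.38).

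Both values turn with the 0 min array. Where the 0 min difference was not subtracted, TAT1 was 1.00 above the control series early and 0.70 above it late, and 73.3% and 76.0% of all genes passed in such a fit, in which the difference between the kits is not removed. BAP3's early difference was -0.88 ± 0.87 in the heat series and 0.10 without the 0 min subtraction. With the subtraction the remaining members lay between -0.51 and 0.37 early and between -0.50 and 0.32 late, apart from BAP3 at -1.11 ± 0.87 late. Without it 7 of the 10 members passed in each window (AGP1, BAP2, CAN1, GAP1, PTR2, TAT1 and TAT2). CAN1 was then at -3.66 early and -3.40 late, GAP1 at -3.38 and -3.43, PTR2 at 1.36 and 1.80 and BAP2 at 1.17 and 0.86, so that the differences of GAP1, PTR2 and BAP2 turned in sign too.

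In the spline fit of the heat against the control series, AGP1 (adjusted p = 0.048) and DIP5 (0.012) passed, beside 35.3% of all genes. AGP1's call was lost without any of the 7 later times (0.058 to 0.14). DIP5's rests on 24 h (0.68 without it), when its level was 8.93 in the heat series and 12.19 in the control series. Without 24 h, BAP3 (0.0060) and TAT1 (0.0087) passed instead, beside 25.5% of all genes.

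In the cold series PTR2, the peptide transporter, rose between the early and the late window. Its levels at 10 °C were 10.56, 10.32, 10.33, 11.07, 11.98, 12.48, 12.30 and 9.37 from 0 min to 24 h, so that the highest array, at 4 h, lay 1.93 above the start (3.80-fold). In the control series they were 9.97, 9.99, 9.95, 10.08, 9.59, 8.53, 7.30 and 6.95. The cold series lay above the control series at each time, by little up to 30 min and by most at 8 h, where the arrays stood at 12.30 and 7.30. PTR2 was the only member at least 2-fold above its start at any time in any series, at 2, 4 and 8 h in the cold series, beside 5.47%, 8.44% and 13.2% of all genes.

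PTR2's difference between the cold and the control series was larger in the late than in the early window by 3.21 ± 0.55 (9.26-fold, adjusted p = 0.0044), which uses no 0 min array. The mean changes behind it were 1.70 late and 0.02 early in the cold series, against -1.50 late and 0.04 early in the control series. Part of the 9.26-fold is therefore the control series' own decline. This comparison called 24.7% of all genes, and PTR2 was the 1 member of 10 called, beside 13.2% of all genes called as higher. The call was kept under all 12 alternatives run, with differences between 2.60 and 3.91. With the 0 min subtraction PTR2's late difference was 3.20 ± 0.78, which did not pass (adjusted p = 0.064). Neither cold window called any member or any gene with that subtraction (0.0% of all genes). At an unadjusted p under 0.05, TAT1 passed early, beside 519 genes (9.52%), and PTR2 late, beside 1143 of the 5449 genes.

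Apart from PTR2, no member was at least 2-fold above its start at any time at 10 °C. BAP3 stayed between 12.27 and 12.75 through 8 h in the cold series, against a lowest array of 8.60 in the control series, and its late difference was 1.35 ± 0.87 (adjusted p = 0.42). DIP5 stayed between 13.28 and 13.94 through 8 h in the cold series, with a late difference of 1.11 ± 0.57 (adjusted p = 0.30). GNP1 was at 12.45 at 8 h in the cold series and at 10.52 in the control series, with a late difference of 0.70 ± 0.79. BAP3, GNP1 and PTR2 were at least 2-fold lower at 8 h in the heat and the control series but not in the cold series, a pattern of 0.275% of all genes. MUP1, outside the 10, had it too, with changes of -4.49 in the heat, -2.29 in the control and -0.88 in the cold series. This pattern was not a planned comparison and rests on 1 array per series, so its share is descriptive only.

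BAP2 and TAT1 had other courses in the cold. TAT1 was above its start in the first 2 h, with levels of 11.19, 11.83, 11.96, 11.94, 11.47, 10.80, 10.01 and 9.80, and its early difference from the control series was 0.97 ± 0.39 (adjusted p = 0.46). Its neighbour BAP2 was below its start at each of the 7 later times, with levels of 12.41, 12.18, 12.14, 11.84, 11.47, 11.18, 10.93 and 11.73. At 4 h BAP2 was the only member at least 2-fold below its start in the cold series, beside 6.85% of all genes, and at 8 h BAP2, TAT1 and TAT2 were, beside 11.9%.

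The cold and control series share an amplification kit, and without the 0 min subtraction more members passed. Early these were TAT1 at 1.65 ± 0.19 (adjusted p = 0.00022) and TAT2 at 0.43 ± 0.12 (0.014), beside 32.7% of all genes. Late they were PTR2 at 3.78 ± 0.39 (6.2e-05), TAT1 at 1.45 ± 0.19 (0.00023), BAP3 at 1.80 ± 0.43 (0.0066) and DIP5 at 1.13 ± 0.29 (0.0085), beside 41.0% of all genes. A difference already there at 0 min, such as the 0.68 of TAT1, is contained in these values.

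In the spline fit of the cold against the control series, 4 of the 10 passed (PTR2, AGP1, GAP1 and TAT2), beside 65.0% of all genes. Only PTR2 of these passed without 24 h as well (adjusted p = 2.0e-06 with it and 3.3e-07 without it). The values without 24 h were 0.39 for AGP1, 0.69 for GAP1 and 0.60 for TAT2, and 7 of the 10 passed in that fit, beside 46.2% of all genes. GAP1 at 24 h had a level of 13.76 in the cold series and 9.35 in the control series. AGP1 and TAT2 lay the other way at 24 h, at 11.82 and 9.71 in the cold series against 13.41 and 11.39 in the control series.

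Heat and cold were then set against each other. The windows called 4 differences in 3 genes, all lower in the heat series. TAT1 changed by -1.36 early in the heat series and by 0.72 in the cold series, a difference of -2.08 ± 0.39 (adjusted p = 0.010). Late it changed by -2.61 in the heat series and by -0.42 in the cold series, a difference of -2.19 ± 0.39 (adjusted p = 0.024). TAT2, the tryptophan permease, changed by -0.56 early in the heat series and by 0.23 in the cold series, a difference of -0.78 ± 0.23 (adjusted p = 0.041). PTR2 changed by -1.52 late in the heat series and by 1.70 in the cold series, a difference of -3.22 ± 0.78 (adjusted p = 0.037). These were 2 of the 10 members early, beside 16.2% of all genes (8.42% lower in the heat series), and 2 late, beside 6.5% (2.72% lower).

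All 4 differences had the same sign at each of the 3 times of their window, but their calls depend on the fit. All 4 were lost where the control series was left out (TAT1 0.13 early and 0.19 late, TAT2 0.20, PTR2 0.19), a fit in which 0 genes passed. TAT1's late call was also lost without 4 h (0.10), TAT2's without 30 min, 60 min or 4 h (0.14, 0.10 and 0.082), and PTR2's without 15, 30 or 60 min or 4 h (0.063, 0.078, 0.052 and 0.13). Their sizes rest on the 0 min arrays: without that subtraction TAT1 differed by -0.66 early and -0.76 late, TAT2 by -1.21 early and PTR2 by -1.98 late.

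**Figure D4:**
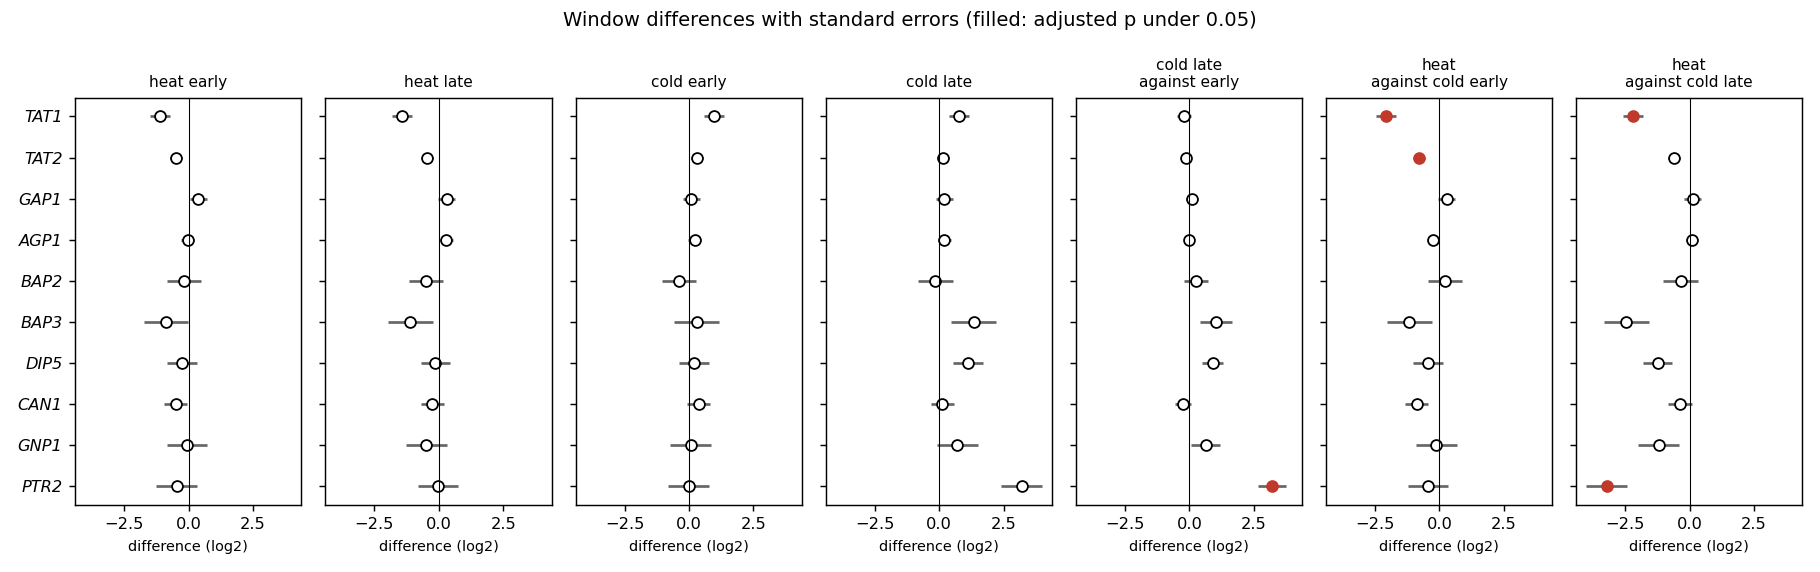
Differences of log2 change (horizontal, ± SE of the limma fit) of the 10 permease genes (vertical) in 7 window comparisons. Filled points passed at an adjusted p under 0.05: PTR2 in cold late against early at 3.21, TAT1 and TAT2 in heat against cold early at -2.08 and -0.78, and TAT1 and PTR2 in heat against cold late at -2.19 and -3.22.

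BAP3 had a larger late difference between heat and cold than TAT1 but with more spread. It changed by -2.73 in the heat series and by -0.27 in the cold series, a difference of -2.45 ± 0.87 (adjusted p = 0.11), and it passed without 8 h, when the control series was low (-2.14). DIP5 had -1.24 ± 0.57 (adjusted p = 0.21), GNP1 -1.19 ± 0.79 and TAT2 -0.61 ± 0.23 (adjusted p = 0.13) in the same comparison. Early, BAP3 had -1.18 ± 0.87 and CAN1 -0.88 ± 0.45. Late, BAP2, GAP1, AGP1 and CAN1 lay between -0.38 and 0.12.

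The shape of the courses under heat and under cold was compared with the spline fit. Of the 10 members 6 passed, beside 73.4% of all genes: AGP1 (adjusted p = 1.0e-06), PTR2 (1.7e-06), DIP5 (0.00023), CAN1 (0.0022), GAP1 (0.0030) and GNP1 (0.011). Without 24 h, 9 of the 10 passed, beside 69.5% of all genes, and GAP1 was the exception (0.14). AGP1 at 24 h had a level of 14.33 in the heat series and 11.82 in the cold series. CAN1, the arginine permease, had levels between 8.79 and 9.83 in the heat series and between 12.08 and 13.33 in the cold series, with a change of -1.04 in the heat series and 0.27 in the cold series at 30 min. In the control series CAN1 lay between 12.41 and 13.05, and its heat array was the lower at each time. A one-sided position over the 7 later times was found for 7 of the 10 members in heat against control, beside 63.7% of all genes.

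GAP1, the general permease, was at least 2-fold away from its start at 24 h alone. In the heat series its levels were 10.23, 10.58, 10.89, 10.25, 10.67, 10.27, 10.82 and 6.43, the last below the level of 6.53 that marks the dim range of the array. In the cold series they ran from 13.76 to 14.11 with no low array. At 24 h its change from 0 min was -3.70 or lower in the heat series, a bound set by the dim range, against -0.01 in the cold series and -4.63 in the control series.

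The likeness between members was described by Pearson's r over the 21 changes from 0 min (7 times in each of 3 series), which share their 0 min arrays and are not independent. The closest pair was TAT1 and BAP3 (r = 0.87), followed by TAT1 and TAT2 (0.84), DIP5 and PTR2 (0.81) and DIP5 and GNP1 (0.79). The genome neighbours TAT1 and BAP2 had an r of 0.505. The least alike pair was GAP1 and BAP2 (-0.39). All values of r for GAP1 lean on 2 arrays at 24 h, with changes of -3.70 or lower in the heat series and -4.63 in the control series. The other changes of GAP1 were at most 0.66 in size. Those of AGP1 lean on the cold array at 24 h (-1.99), since its next largest change was -0.56.

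**Figure D5:**
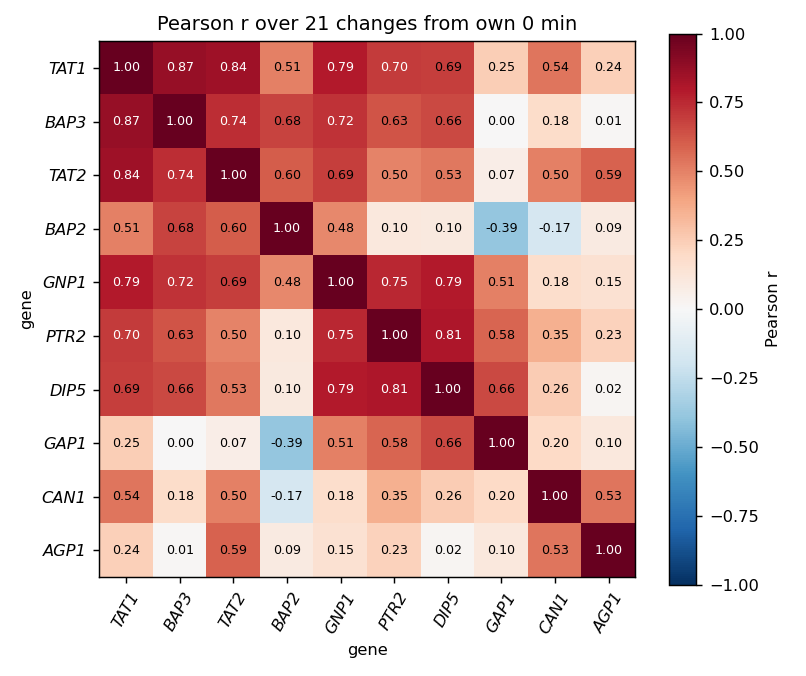
Pearson's r between the 10 permease genes over 21 changes from the own 0 min array, as a grid of coloured cells with the value written in each. TAT1, TAT2 and BAP3 have r between 0.74 and 0.87 with each other, and DIP5, GNP1 and PTR2 between 0.75 and 0.81. These sets are not separate, since TAT1 and GNP1 have an r of 0.79. The highest r with another member is 0.66 for GAP1 (DIP5) and 0.59 for AGP1 (TAT2), and the values of both genes lean on arrays at 24 h.

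Of all genes above the dim range, the one most like TAT1 and also the one most like TAT2 was TIM23, which encodes a subunit of the mitochondrial import channel (r = 0.89 for each). BAP3 was most like PDH1 (0.89) and BAP2 most like ADH3, a mitochondrial alcohol dehydrogenase (0.76). DIP5 was most like SCS2, a membrane protein of the endoplasmic reticulum (0.91), GNP1 most like MRPL20, a mitochondrial ribosomal protein (0.91), and PTR2 most like PUB1, an RNA-binding protein (0.89). GAP1 was most like DUG1 (0.97), a peptidase of glutathione breakdown, and AGP1 most like ARG1 (0.92), an enzyme of arginine synthesis. These values lean on 24 h, in the heat and control series for GAP1 and in the cold series for AGP1. They do not show likeness over the whole courses. CAN1 was most like QDR3, a transporter of the multidrug family (0.85).

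Related genes of nitrogen uptake and its control were counted in 8 lists with 74 measured genes. In the comparison of heat or cold with the control series that uses the 0 min arrays, 0 of the 74 passed in either window, beside 0.0184% and 0.0551% of all genes for heat and 0.0% for cold. In heat late against early, 0 of the 74 passed as well, beside 0.147%. In cold late against early 10 were higher and 3 lower, beside 24.7% of all genes in either direction. In heat against cold 3 were higher and 2 lower early, beside 16.2%, and 4 were higher and 1 lower late, beside 6.5%. The median difference of the 74 in cold late against early was 0.22, beside 0.18 for the 10 permeases and 0.01 for all genes. In the spline fits 32 of the 74 passed in heat against control, beside 35.3% of all genes, and 46 in cold against control, beside 65.0%. In heat against cold 56 passed, beside 73.4%, and in the control series 38, beside 54.5%.

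Of the 11 other amino acid permeases, 4 passed in cold late against early, beside 24.7% of all genes. Of these, 3 were higher, beside 13.2% of all genes. AGP2, a plasma membrane protein of the same family, differed by 2.24 ± 0.40 (adjusted p = 0.0051), with levels of 9.86, 9.02, 8.95, 9.51, 10.48, 11.26, 11.68 and 11.51 in the cold series. It was thus below its start for an hour and above it from 2 h on, while in the control series it stayed between 10.19 and 10.63 through 8 h. HIP1, the histidine permease, differed by -1.05 ± 0.23 (adjusted p = 0.011), with 11.78 at 15 min and 10.84 at 8 h in the cold series, against 11.15 and 11.84 in the control series. None of the 8 peptide, ammonium, urea and allantoin transporters passed in a window comparison, where between 0.0% and 24.7% of all genes did. In the spline fits all 8 passed in heat against cold, beside 73.4% of all genes. Against the control series 5 passed for heat, beside 35.3%, and 3 for cold, beside 65.0%. In the control series itself 3 passed, beside 54.5%.

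Of the 12 genes of amino acid sensing, PTR3 and ASI1 passed in cold late against early, beside 24.7% of all genes. PTR3, whose protein passes the signal from Ssy1 to Ssy5, differed by -0.99 ± 0.26 (adjusted p = 0.021) and stood in the cold series at 9.92 at 0 min and 8.65 at 4 h. In heat against cold late PTR3 was the 1 gene of the 12 called, beside 6.5% of all genes. It differed by 1.74 ± 0.37 (adjusted p = 0.027), with 12.25 at 8 h in the heat series and 8.84 in the cold series. At 0 min it already stood at 11.19 in the heat series and 9.92 in the cold series. ASI1, part of a complex of the inner nuclear membrane that keeps latent Stp1 and Stp2 from acting, differed by 0.96 ± 0.24 in cold late against early (adjusted p = 0.017). ASI2 of the same complex was higher in heat against cold early by 1.39 ± 0.26 (adjusted p = 0.010). It was the 1 gene of the 12 called there, beside 16.2% of all genes. None of CUP9, UBR1 and UBR2, which encodes a relative of Ubr1 with other substrates, passed in a window comparison. In the spline fits UBR1 passed in heat against cold, beside 73.4% of all genes. UBR1 and UBR2 passed in the control series, beside 54.5%.

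Of the 5 GATA factors, GAT1 alone passed in a window, in heat against cold late, beside 6.5% of all genes. Its difference was 2.15 ± 0.43 (adjusted p = 0.025). Its level at 8 h was 12.93 in the heat series and 10.73 in the cold series, from 11.24 and 11.81 at 0 min. Of the 14 measured nitrogen catabolic enzymes, PUT1 (proline oxidase, 2.37 ± 0.53, adjusted p = 0.030) and DAL3 (1.61 ± 0.36, adjusted p = 0.029) were higher in that comparison. In cold late against early 3 of the 14 were higher, beside 13.2% of all genes. Among them were UGA2, which oxidises succinate semialdehyde (1.96 ± 0.32, adjusted p = 0.0039), and GDH2, the glutamate dehydrogenase that releases ammonium (1.13 ± 0.24, adjusted p = 0.0085).

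Of the 12 genes of permease folding, sorting and ubiquitylation, LST7 and DOA4 passed in cold late against early, beside 24.7% of all genes. LST7 differed by -0.95 ± 0.20 (adjusted p = 0.0085) and DOA4 by 0.80 ± 0.25 (adjusted p = 0.037). DOA4, a ubiquitin protease, was also higher in heat against cold early by 1.17 ± 0.35 (adjusted p = 0.043), as was LST8 by 0.89 ± 0.27 (adjusted p = 0.044). These 2 of the 12 stood beside 7.82% of all genes called as higher. Of the 9 vacuolar amino acid transporters, 2 were higher in cold late against early, beside 13.2% of all genes. These were VBA1 (1.06 ± 0.27, adjusted p = 0.018) and AVT4 (0.77 ± 0.26, adjusted p = 0.047). In heat against cold late VBA1 alone was lower (-1.43 ± 0.39, adjusted p = 0.0496), beside 2.72% of all genes. YPQ1 (-1.48 ± 0.36, adjusted p = 0.021) and VBA2 (-1.20 ± 0.33, adjusted p = 0.032) were lower in heat against cold early, beside 8.42% of all genes.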

How the data were processed

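RNA was measured on 1-colour Affymetrix arrays, 24 in all. The deposited values are on a log2 scale, 1 per probe set and array, and were made with RMA, per the submitters' processing notes. Its version, and whether it was run on the 24 arrays jointly, is not stated in the labels. Because RMA equalises the brightness of arrays, a general rise or fall of RNA would not appear. No further normalization was applied, and array medians ran from 10.69 to 10.78.

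Of the 10928 probe sets, 5498 have 1 S. cerevisiae gene in the platform annotation, 1 has several genes, 1746 belong to other species and 3683 are not listed. For 47 genes several probe sets were averaged, giving 5449 genes. The number of arrays limits the precision.

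All 24 arrays entered the fits (limma 3.58.1, lmFit and eBayes, under R 4.3.3). The window fit had time as a block and a heat and a cold term at 0 min, in each window and at 24 h, with 8 residual degrees of freedom. The spline fit used log2 of the minutes plus 15 with 3 degrees of freedom per series and left 12. P-values were adjusted over all 5449 genes by the Benjamini-Hochberg method, with a threshold of 0.05. The median SE over genes was 0.34 for comparisons with the 0 min subtraction and 0.24 for late against early. The arrays of a window stand in for replicates and share a series, so p-values may be too small.

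All 10 members are named. Of the related lists, at most the 2 genes with the smallest p per list and comparison are named among those that passed. MUP1 and MMP1 are named besides, for their changes at 8 h. For each member, the gene with the highest r above the dim range is named. The members and lists were chosen with earlier results of these data known. 1 of the 85 listed genes could not be matched. Alternatives were a late window to 24 h, no 0 min subtraction, only the compared series, renewed quantile normalization, no dim genes, the brightest probe set, another variance prior, another spline and each time left out.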

Additional observations from a re-analysis of the deposited data

Results flagged for a closer look

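Results in which heat and cold differed by a test of that difference are given here with their adjusted p from limma. In the window comparisons TAT1 was lower in the heat than in the cold series early (0.01001) and late (0.02393), TAT2 early (0.04085) and PTR2 late (0.03703). In the spline fit the course differed between the heat and the cold series for AGP1 (1.034e-06), PTR2 (1.676e-06), DIP5 (0.0002339), CAN1 (0.002229), GAP1 (0.002986) and GNP1 (0.01105). The course test gives no direction. The fit leaves out a constant difference between series, whereas a kit effect that changes over time cannot be told apart from heat. With 1 array per series and time, no group could be searched for a sample far from the others.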

How the results depend on the processing

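No paired analysis was possible because there are no replicate numbers to pair by. Arrays of the same time were matched by the time block of the window fit. Without the 0 min subtraction, 24 of the 60 member differences that use it changed sign, 7 of 10 in heat early and 5 of 10 in heat late. Of the member differences of at least 0.5 or past the threshold, those that changed sign under any alternative were BAP3 heat early (0.10), TAT1 heat early (0.997) and TAT1 heat late (0.695), all without that subtraction, which adds each series' constant difference to the value. Counts of genes called moved as follows, with the cause not tested in any setting. Without the 0 min subtraction they were 3994 (heat early), 4141 (heat late), 1784 (cold early), 2234 (cold late), 4245 (heat against cold early) and 4141 (heat against cold late), against 1, 3, 0, 0, 885 and 354. With only the compared series they were 0 (heat early), 0 (heat late), 2 (heat late against early), 7 (cold early), 2263 (cold late against early), 0 (heat against cold early) and 0 (heat against cold late), against 8 for heat late against early and 1348 for cold late against early in the fit of all 3 series. With a late window to 24 h they were 0 (heat early), 1 (heat late), 4 (heat late against early), 815 (cold late against early), 272 (heat against cold early) and 6 (heat against cold late). With renewed quantile normalization they were 0 (heat early), 1 (heat late), 2 (heat late against early) and 38 (cold late). Heat late against early had 5 with the brightest probe set, 5 with a trended and robust prior and 3 without dim genes. The heat course had 1102 with time as a rank, against 1924. With each time left out in turn, counts ran from 0 to 4 (heat early), 2 to 4 (heat late), 1 to 149 (heat late against early), 0 to 32 (cold early), 0 to 418 (cold late), 240 to 1782 (cold late against early), 163 to 1265 (heat against cold early), 0 to 615 (heat against cold late), 954 to 2251 (heat course), 2519 to 3628 (cold course), 3489 to 4157 (heat against cold course) and 241 to 3193 (control course). With a late window to 24 h the heat against cold calls of TAT2 early (adjusted p = 0.51), TAT1 late (0.072) and PTR2 late (0.12) were lost. Control course calls were also lost for BAP3 without 15 min, 60 min, 4 h or 8 h (0.057 to 0.14), for DIP5 without 15, 30 or 60 min (0.065 to 0.086), for GNP1 without 60 min (0.054) and for TAT1 without 4 h (0.051). With time as a rank, the calls of AGP1 (0.13) and DIP5 (0.057) in the heat course, GAP1 (0.066) in the heat against cold course, and BAP3 (0.20) and DIP5 (0.062) in the control course were lost. With 4 spline degrees of freedom those of AGP1 in the heat course (0.066) and DIP5 in the control course (0.061) were lost. Dim probe sets are compressed by RMA, which limits GAP1 in the heat series at 24 h.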
